A study of Mus musculus with 12 samples.

Results

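Liver sinusoidal endothelial marker genes were followed in whole mouse liver during the first hours after partial hepatectomy. The group is 10 genes, fixed by symbol: Lyve1, Stab1, Stab2, Clec4g, Oit3, Kdr, Flt1, Flt4, Pecam1 and Gata4. All 10 were found by name among the 54532 genes of the deposited table, and 9 of them were among the 11451 genes that passed the filter on level and were tested. The samples were wild-type C57/BL6J livers in 4 groups of 3 libraries: livers taken 3, 6 and 12 h after a 70% hepatectomy, and livers of mice that had a sham operation. Poly(A) RNA was sequenced, and the question was what expression does in the preparatory phase before the remnant regrows. The labels give neither the age of the mice nor the hour at which the sham livers were taken, and they leave unsaid whether each library is a different mouse. The p-values therefore measure the spread between these samples, which may be technical. The title of the third 6 h library says 6 h and its time tag 7 h; the title was followed.

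The sinusoids are the capillaries of the liver, and their endothelium has open pores and no continuous basement membrane, so plasma reaches the hepatocytes directly. These cells clear hyaluronan, collagen fragments, modified lipoproteins and immune complexes from blood through a set of scavenger and lectin receptors. They also answer vascular endothelial growth factors (VEGFs) and release signals that act on hepatocytes, and for that they have been studied in regeneration after hepatectomy. None of the 10 genes is fully restricted to them. Kdr, Flt1, Flt4 and Pecam1 are used by endothelium of other vessels, Lyve1 and Flt4 by lymphatic vessels, Stab1 and Lyve1 by some macrophages, Pecam1 by platelets and leukocytes, and Gata4 by stellate cells.

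Up to 250 bases before the annotated start are shown for 4 members: Flt1, Kdr, Clec4g and Stab1. Among members with a promoter entry, they had the longest stretches before the first annotated exon. Stab2 and Flt4 also had an entry, with 167 and 0 such bases. Against sham livers, the VEGF receptor gene Flt1 was higher at 3 h and 6 h. Its partner receptor gene Kdr was lower at 6 h and 12 h. All 4 were called lower at 12 h than at 3 h, as were 18.2% of all tested genes. For Flt1 these calls are from a separate fit, chosen after the data were seen, where 16.9% of genes were lower at 12 h than at 3 h. Of 15 alternatives, the call between 12 h and 3 h was lost in 4 for Kdr and in 2 for Clec4g. The sequences are from the RefSeq promoter table for GRCm38.p6, which held 6 of the 10 members, and they are written 5′ to 3′ on the strand of the gene, up to the last base before the first annotated exon. Capitals mark GGAAG or its reverse complement CTTCC, the core bound by ETS factors, and TGACGTCA, a palindrome known as the cyclic AMP response element.
Flt1, chr5:147726012-147726261, minus strand: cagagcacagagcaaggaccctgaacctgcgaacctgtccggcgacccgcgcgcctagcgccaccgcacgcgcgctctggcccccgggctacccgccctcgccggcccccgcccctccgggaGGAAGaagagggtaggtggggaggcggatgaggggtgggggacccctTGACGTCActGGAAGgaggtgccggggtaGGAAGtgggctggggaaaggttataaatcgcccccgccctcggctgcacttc
Kdr, chr5:75978459-75978705, minus strand: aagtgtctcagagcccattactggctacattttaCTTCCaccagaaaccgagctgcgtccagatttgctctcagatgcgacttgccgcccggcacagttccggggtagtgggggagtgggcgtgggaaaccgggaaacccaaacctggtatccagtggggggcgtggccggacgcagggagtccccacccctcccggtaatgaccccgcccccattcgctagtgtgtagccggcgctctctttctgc
Clec4g, chr8:3720652-3720901, minus strand: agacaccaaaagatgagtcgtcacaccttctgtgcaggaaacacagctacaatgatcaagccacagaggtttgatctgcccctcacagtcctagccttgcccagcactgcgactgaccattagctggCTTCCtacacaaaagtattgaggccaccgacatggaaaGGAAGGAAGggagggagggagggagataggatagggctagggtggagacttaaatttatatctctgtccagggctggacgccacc
Stab1, chr14:31168642-31168891, minus strand: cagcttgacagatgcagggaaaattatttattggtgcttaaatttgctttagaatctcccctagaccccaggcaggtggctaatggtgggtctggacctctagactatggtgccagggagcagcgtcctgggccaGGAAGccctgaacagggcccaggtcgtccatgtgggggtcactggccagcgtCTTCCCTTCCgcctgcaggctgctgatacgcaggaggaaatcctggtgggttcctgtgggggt
The Flt1, Clec4g and Stab1 windows each held 3 matches to the ETS core on the 2 strands, and the Kdr window of 247 bases held 1. In Clec4g a pair of the matches share a base. The same core was in 64.1% of all 32851 promoter windows in the table. TGACGTCA was in the Flt1 window and in 1.55% of all windows. GATAA or TTATC, the core bound by GATA factors, is in 22.6% of all windows and was in none of these 4.

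Each library held between 15573405 and 17199639 counts. Sham replicate 1 was unlike sham replicates 2 and 3, with 11.9% of its counts from mitochondrially encoded transcripts, against 6.26% and 5.52% in those libraries. Summed over the 10 members, the level was 43.6 to 54.9 FPKM at 3 h, 34.4 to 39.7 FPKM at 6 h and 23.5 to 28.8 FPKM at 12 h, against 27.3 to 36.1 FPKM in sham livers. FPKM here is the deposited value, a count scaled to gene length and library size, so levels of different genes can be set side by side. All 10 members had counts in every library, from 37 for Lyve1 in a sham liver to 974 for Stab1 in a 3 h liver. Whole liver RNA is mostly that of hepatocytes, and 10 hepatocyte genes summed to 24800 to 49330 FPKM in the single libraries. In such bulk samples, fewer cells of a type and less RNA per cell cannot be told apart.

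In sham livers the C-type lectin gene Clec4g had the highest mean level, 8.33 ± 2.40 FPKM (SD, n = 3), and its libraries lay above those of the next gene, Oit3, at 4.62 ± 0.36 FPKM. Oit3, Stab2, Gata4, Stab1 and Kdr followed in that order, and the libraries of each neighbouring pair overlapped. Pecam1 and Flt4 came next and overlapped with each other. Lyve1 at 0.900 ± 0.224 FPKM and Flt1 at 0.462 ± 0.081 FPKM were lowest, and each was separate from its neighbour. At 6 h the mean of Lyve1 was the third highest, at 4.43 ± 2.04 FPKM, with libraries that overlapped those of Stab2 above it and Stab1 below it. Flt1 had the lowest mean in every group.

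**Figure D1:**
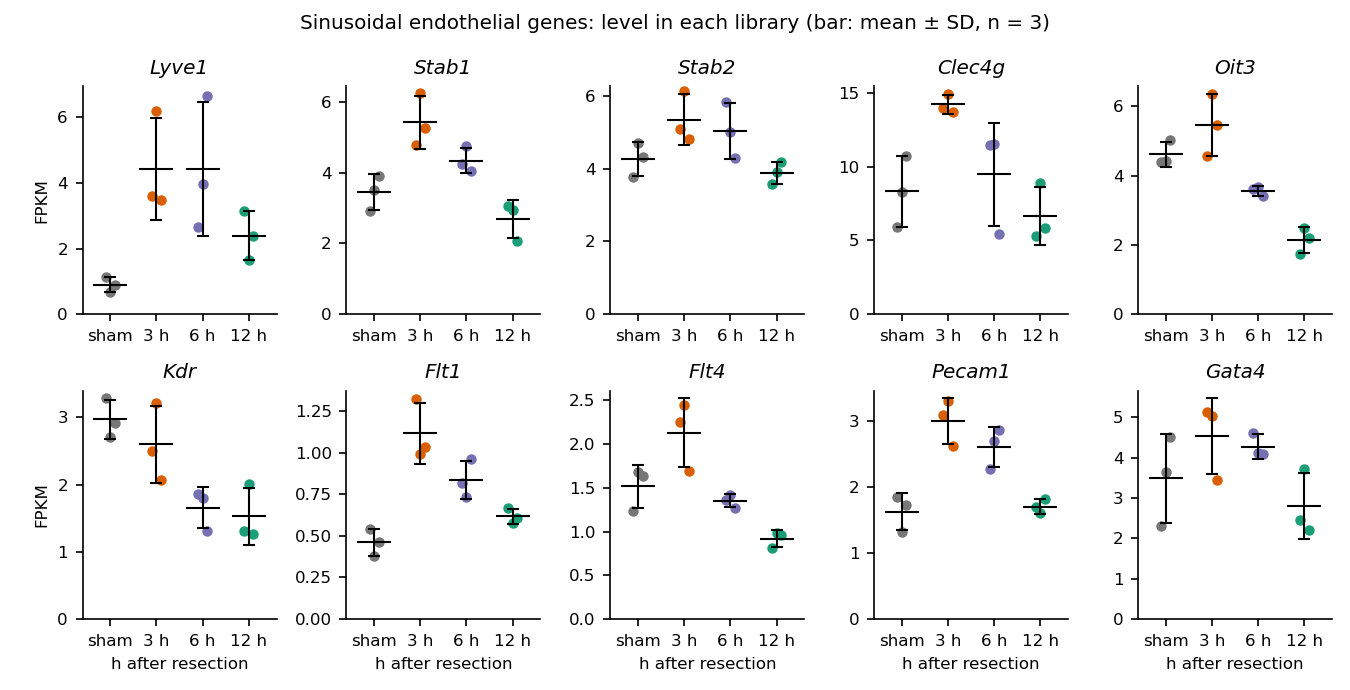
Level of each of the 10 genes in each library (FPKM, as deposited, vertical axis starting at 0) in sham livers and at 3, 6 and 12 h after resection; points are libraries, and bars are the mean ± SD of 3. Lyve1 lies between 0.681 and 1.13 FPKM in sham livers and between 3.48 and 6.21 FPKM at 3 h, while Oit3 lies between 1.75 and 2.47 FPKM at 12 h and between 4.39 and 5.04 FPKM in sham livers.

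Tests were made with edgeR's quasi-likelihood method on the counts, with 1 model over the 12 libraries and Benjamini-Hochberg adjustment over the 11451 genes; calls are at an adjusted p under 0.05, and differences are given on the log2 scale with their standard error. Across the 4 groups, 7 of the 9 tested members differed, and 50.0% of all tested genes did. Stab2 (adjusted p = 0.0889) and Gata4 (adjusted p = 0.144) were those that did not pass. At 3 h, 3 members were higher than in sham livers (Lyve1, Stab1 and Pecam1), where 9.81% of all tested genes were higher and 11.7% lower. No member was lower at 3 h by edgeR, also at an unadjusted p under 0.05, nor by DESeq2 or limma. At 6 h, 2 were higher (Lyve1 and Pecam1) and 1 was lower (Kdr), against 16.8% and 18.2% of all tested genes. At 12 h, 1 was higher (Lyve1) and 3 were lower (Oit3, Kdr and Flt4), against 13.5% and 15.3%. The median difference of the tested members was 0.45 at 3 h, 0.21 at 6 h and -0.33 at 12 h, beside -0.02, -0.01 and -0.02 for all tested genes; with scaling to library totals the 3 h median was 0.27, and the 6 h median was -0.10, beside -0.32 for all tested genes at 6 h. Without both sham replicate 1 and 6 h replicate 3, 5 members were lower at 12 h, with a median of -0.53. All 3 h libraries lay above all sham libraries for 6 of the 9 tested members and below them for none, where 18.9% of all tested genes lay above and 17.5% below. The 6 h libraries lay above for 3 and below for 2 (23.1% and 20.8% of all tested genes), and the 12 h libraries above for 1 and below for 3 (19.7% and 18.9%). These positions of libraries were taken on the deposited FPKM, which carry a scaling between libraries. They were not recounted with library totals. The 3 comparisons share the sham libraries. Lyve1 reached 1 FPKM in a single sham library and passed the filter through the resected livers, so its presence among the tested genes is tied to its difference.

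**Figure D2:**
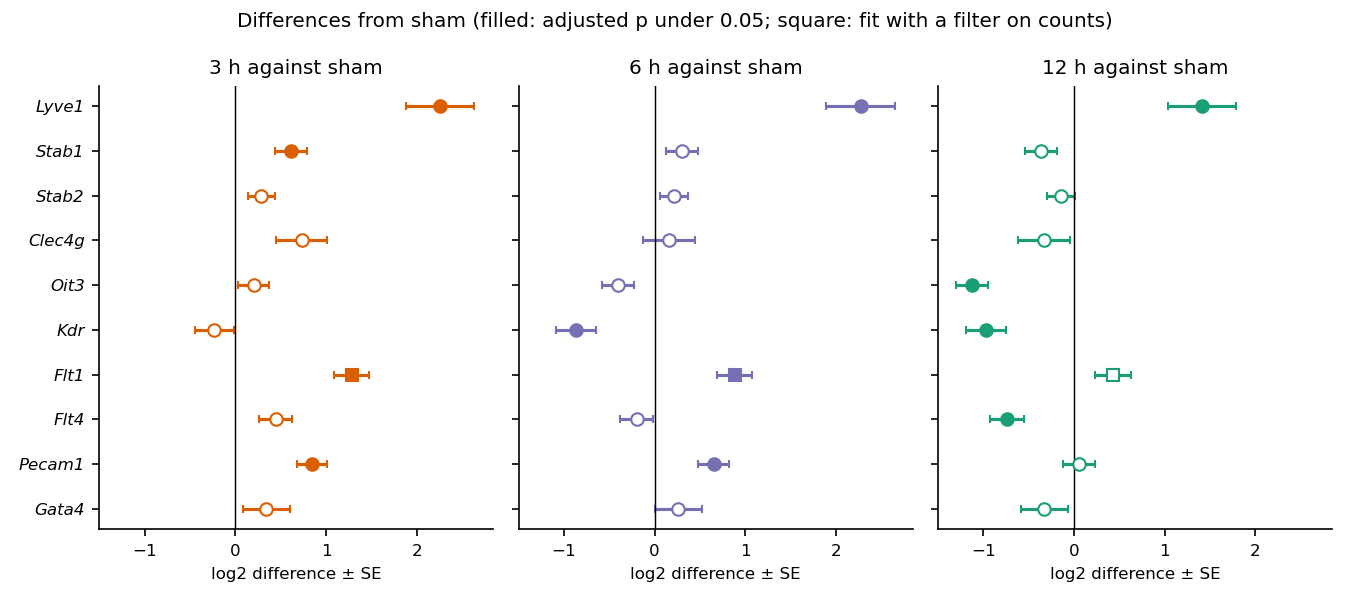
Log2 difference from sham (± SE) at 3, 6 and 12 h for each gene; filled symbols passed at an adjusted p under 0.05, circles are from the fit over 11451 genes, and squares, for Flt1, from a fit with a filter on counts. Lyve1 lies to the right of 0 at each time (2.26, 2.27 and 1.41), and Kdr moves further to the left with time (-0.23, -0.87 and -0.97).

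Among the hyaluronan and scavenger receptors, Lyve1 had the largest differences. Lyve1 encodes a hyaluronan receptor and lies on chromosome 7 at 110850607 to 110863239 on GRCm38, minus strand. It was at 3.59, 6.21 and 3.48 FPKM at 3 h, against 1.13, 0.681 and 0.891 FPKM in sham livers. It was at 2.65, 3.98 and 6.66 FPKM at 6 h and at 3.15, 1.65 and 2.40 FPKM at 12 h. Every library after resection lay above every sham library, and the third 6 h library, the one tagged 7 h, was the highest of all. The fitted difference was 2.26 ± 0.38 at 3 h (4.79-fold, adjusted p = 0.000918), 2.27 ± 0.38 at 6 h (4.83-fold, adjusted p = 0.000424) and 1.41 ± 0.37 at 12 h (2.65-fold, adjusted p = 0.0133). The call at 12 h was lost without sham replicate 2 (1.24, adjusted p = 0.0565) or without 12 h replicate 1 (1.16, adjusted p = 0.0562). The counts behind these values were 37 to 56 in sham libraries and 88 to 275 in the others.

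Stab1 and Stab2 encode stabilin-1 and stabilin-2, large scavenger receptors that take up modified lipoproteins and, for stabilin-2, hyaluronan. Stab1 was at 4.77, 6.24 and 5.25 FPKM at 3 h, against 2.91, 3.52 and 3.91 FPKM in sham livers. At 6 h it was at 4.24, 4.74 and 4.04 FPKM, still above each sham library, and at 12 h at 3.07, 2.95 and 2.07 FPKM, overlapping them. The rise at 3 h passed the test (0.61 ± 0.17, adjusted p = 0.0233), while the values at 6 h (0.31 ± 0.17, adjusted p = 0.201) and 12 h (-0.36 ± 0.18, adjusted p = 0.138) did not. The 3 h call was lost with scaling to library totals (0.43, adjusted p = 0.111), with only the 2 groups in the fit (0.63, adjusted p = 0.0544), without both sham replicate 1 and 6 h replicate 3 (0.50, adjusted p = 0.0518), without sham replicate 1 (0.50, adjusted p = 0.0503), without sham replicate 2 (0.63, adjusted p = 0.0526) and without 3 h replicate 2 (0.49, adjusted p = 0.102). Without sham replicate 1, Stab1 was called lower at 12 h (-0.48, adjusted p = 0.0347).

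Stab2 had no call against sham livers at any time. It was at 5.08, 6.14 and 4.80 FPKM at 3 h, against 3.76, 4.70 and 4.31 FPKM in sham livers. At 6 h it was at 5.82, 5.01 and 4.29 FPKM and at 12 h at 3.58, 3.90 and 4.18 FPKM. All 3 h libraries were above the sham libraries, but the difference of 0.29 ± 0.15 did not pass (adjusted p = 0.208). The ratio of Lyve1 to Stab2 within a library was 0.706, 1.01 and 0.725 at 3 h, against 0.300, 0.145 and 0.207 in sham livers. It was 0.455, 0.794 and 1.55 at 6 h and 0.881, 0.424 and 0.573 at 12 h, so no library after resection reached down to the sham range. The ratio of Stab1 to Stab2 was 0.937, 1.02 and 1.09 at 3 h, against 0.772, 0.748 and 0.906 in sham livers, so the 3 h libraries lay above all sham libraries. It was 0.729 to 0.946 at 6 h and 0.495 to 0.857 at 12 h, overlapping the sham libraries. Neither ratio carries a test. The ratio of Lyve1 to Stab2 pairs the member with the largest difference at 3 h with one that had no call against sham livers. It is therefore not a result separate from the Lyve1 difference.

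Clec4g encodes a C-type lectin of sinusoidal endothelium also known as LSECtin. It was at 14.0, 14.96 and 13.7 FPKM at 3 h, against 5.93, 8.32 and 10.7 FPKM in sham livers. At 6 h it was at 11.5, 11.6 and 5.47 FPKM and at 12 h at 5.27, 8.92 and 5.82 FPKM. The 3 h libraries lay above all sham libraries, but the difference of 0.73 ± 0.29 did not pass (adjusted p = 0.0873). It passed without sham replicate 3 (0.96, adjusted p = 0.0436), by DESeq2 (0.75, adjusted p = 0.0498) and with no filter (0.78, adjusted p = 0.00122), a fit without spread estimated per gene. Clec4g at 12 h passed only without both sham replicate 1 and 6 h replicate 3 (-0.53, adjusted p = 0.0412) among the alternatives run. The low 6 h value was that of the third library.

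Oit3 encodes a secreted or membrane protein with a zona pellucida domain that is used as a marker of liver sinusoidal endothelium; the gene lies on chromosome 10 at 59422958 to 59441778, minus strand. It was at 1.75, 2.47 and 2.19 FPKM at 12 h, against 4.39, 4.43 and 5.04 FPKM in sham livers. The 3 h values were 4.58, 6.36 and 5.47 FPKM, and the 6 h values were 3.603, 3.68 and 3.41 FPKM. The libraries of 6 h and 12 h lay below every sham library, and those of 12 h below every other library. Oit3 fell at 12 h by 1.12 ± 0.18 on the log2 scale (0.459-fold, adjusted p = 0.000543). The values at 3 h (0.20 ± 0.17, adjusted p = 0.450) and 6 h (-0.40 ± 0.17, adjusted p = 0.0916) did not pass; with scaling to library totals the 6 h value was called lower (-0.72, adjusted p = 0.00612).

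The 3 VEGF receptors went different ways. Kdr encodes VEGFR2, the main signalling receptor for VEGF-A; it lies on chromosome 5 at 75932827 to 75978458, minus strand. It was at 1.86, 1.797 and 1.30 FPKM at 6 h, against 3.28, 2.71 and 2.91 FPKM in sham livers. It was at 2.50, 3.22 and 2.07 FPKM at 3 h, overlapping the sham libraries, and at 1.31, 2.01 and 1.26 FPKM at 12 h, below them. Kdr fell by 0.87 ± 0.22 on the log2 scale at 6 h (0.547-fold, adjusted p = 0.00722) and by 0.97 ± 0.22 at 12 h (0.511-fold, adjusted p = 0.00528). The 3 h value of -0.23 ± 0.22 did not pass (adjusted p = 0.493). Both calls held under each of the 15 alternatives run, with differences from -1.17 to -0.58 at 6 h and from -1.22 to -0.66 at 12 h.

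Flt1 encodes VEGFR1, which binds VEGF-A tightly, signals weakly and also exists as a soluble decoy; the gene lies on chromosome 5 at 147561604 to 147726011, minus strand. It was at 1.32, 0.990 and 1.03 FPKM at 3 h, against 0.540, 0.378 and 0.466 FPKM in sham livers. It was at 0.817, 0.735 and 0.960 FPKM at 6 h and at 0.669, 0.576 and 0.605 FPKM at 12 h. All libraries after resection lay above the sham libraries. Flt1 reached 1 FPKM in only 2 libraries and so missed the filter, although it held 95 to 290 counts per library on a gene length of 13504 bases. It was therefore tested in an edgeR fit over the 14649 genes with at least 10 counts in at least 3 libraries, chosen after the data were seen. There it rose by 1.28 ± 0.19 at 3 h (2.43-fold, adjusted p = 0.000419) and by 0.88 ± 0.19 at 6 h (1.84-fold, adjusted p = 0.00324), and the 12 h value of 0.43 ± 0.19 did not pass (adjusted p = 0.121). In that fit 9.52% of all genes were called higher at 3 h and 15.8% at 6 h. Of the 15 alternatives run for the other members, Flt1 was in 1, the fit with no filter (1.29 at 3 h and 0.86 at 6 h). Its values were not recomputed with other scalings or with libraries left out.

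Flt4 encodes VEGFR3, the receptor for VEGF-C and VEGF-D. It was at 0.808, 0.985 and 0.966 FPKM at 12 h, against 1.24, 1.68 and 1.64 FPKM in sham livers. It was at 2.25, 2.45 and 1.69 FPKM at 3 h and at 1.36, 1.42 and 1.27 FPKM at 6 h. The 3 h libraries lay above and the 12 h libraries below all sham libraries. The fall at 12 h of 0.74 ± 0.19 on the log2 scale passed the test (-0.74, adjusted p = 0.0102), while the 3 h value of 0.45 ± 0.18 (adjusted p = 0.101) and the 6 h value of -0.20 ± 0.19 (adjusted p = 0.444) did not.

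Set against each other within a library, which needs no scaling between libraries, the receptors stood in different proportions after resection and in sham livers. The ratio of Kdr to Flt1 in FPKM was 1.89, 3.25 and 2.01 at 3 h, against 6.08, 7.16 and 6.24 in sham livers. It was 2.28, 2.44 and 1.36 at 6 h and 1.96, 3.49 and 2.08 at 12 h. The highest ratio after resection was below the lowest sham ratio. The ratio of Flt4 to Flt1 was 1.70, 2.47 and 1.64 at 3 h, against 2.29, 4.46 and 3.51 in sham livers, and these overlapped. It was 1.67, 1.93 and 1.32 at 6 h and 1.21, 1.71 and 1.60 at 12 h, below the sham livers at both times. These ratios were chosen after the values were seen and carry no test.

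**Figure D3:**
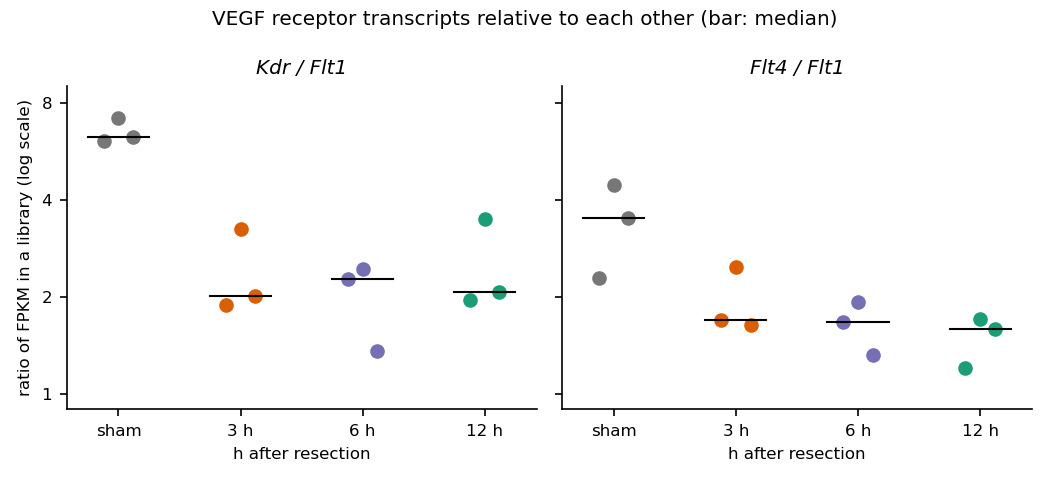
Ratio of Kdr to Flt1 (left) and of Flt4 to Flt1 (right), both in FPKM, in each library on a log scale, for sham livers and 3, 6 and 12 h after resection; bars are medians of 3. The sham libraries lie between 6.08 and 7.16 for Kdr to Flt1, and all 9 libraries after resection lie between 1.36 and 3.49.

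Pecam1 encodes the adhesion molecule CD31 of endothelial junctions, and Gata4 encodes the transcription factor that directs the sinusoidal type of endothelium. Pecam1 was at 3.09, 3.30 and 2.62 FPKM at 3 h, against 1.84, 1.31 and 1.73 FPKM in sham livers. It was at 2.27, 2.69 and 2.86 FPKM at 6 h, also above each sham library, and at 1.69, 1.60 and 1.82 FPKM at 12 h, within their range. It rose by 0.84 ± 0.17 at 3 h (adjusted p = 0.00318) and by 0.65 ± 0.17 at 6 h (adjusted p = 0.00921), and the 12 h value of 0.06 ± 0.17 did not pass (adjusted p = 0.841). The 6 h call was lost with scaling to library totals (0.34, adjusted p = 0.117). With that scaling the median of all tested genes at 6 h was -0.32, beside -0.01 in the main fit. Gata4 was at 5.13, 5.03 and 3.44 FPKM at 3 h, against 2.31, 3.64 and 4.52 FPKM in sham livers. It was at 4.62, 4.11 and 4.09 FPKM at 6 h and at 2.47, 3.73 and 2.21 FPKM at 12 h. Each group overlapped the sham libraries, of which replicate 1 was the lowest, and no comparison of Gata4 passed the test over the 11451 genes.

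Most members were lower at the later times after resection. At 12 h, 7 of the 9 tested members were lower than at 3 h, where 18.2% of all tested genes were lower and 17.8% higher; the median difference was -0.85, beside 0.01 for all tested genes. All 9 had a negative difference, under the 15 alternatives too. Oit3 fell by 1.32 ± 0.18 on the log2 scale (0.399-fold, adjusted p = 0.000158), Flt4 by 1.18 ± 0.19 (adjusted p = 0.000475) and Clec4g by 1.06 ± 0.29 (adjusted p = 0.0121). Stab1 fell by 0.98 ± 0.18, Pecam1 by 0.79 ± 0.17, Kdr by 0.74 ± 0.22 and Stab2 by 0.43 ± 0.15. Lyve1 (-0.85 ± 0.35, adjusted p = 0.0719) and Gata4 (-0.67 ± 0.26, adjusted p = 0.0609) did not pass. Of the 15 alternatives, Lyve1 was called lower in 4 and Gata4 in 6, among them DESeq2 (adjusted p = 0.0483 and 0.0377) and the fit without both sham replicate 1 and 6 h replicate 3 (adjusted p = 0.0270 and 0.0219). Flt1 was lower in the fit with the filter on counts (-0.85 ± 0.19, adjusted p = 0.00420), where 16.9% of genes were called lower. The 12 h libraries lay below all 3 h libraries for 8 of the 9 tested members, the exception being Gata4; the same was seen for 28.5% of all tested genes. Stab2 lost its call in 7 of the 15 alternatives, with scaling to library totals (-0.27, adjusted p = 0.222), with the replicate block (-0.42, adjusted p = 0.0601) and without 3 h replicate 1, 3 h replicate 2 or any 12 h library (adjusted p from 0.0663 to 0.160). Kdr lost it with library totals (-0.57, adjusted p = 0.0620) and without 3 h replicate 2, 12 h replicate 1 or 12 h replicate 3 (adjusted p from 0.0742 to 0.0897). Clec4g lost it without 12 h replicate 1 (-0.92, adjusted p = 0.0531) or 12 h replicate 3 (-0.97, adjusted p = 0.0536), and without either of these libraries 4 members were called.

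The step between 3 h and 6 h was smaller. Flt4 (-0.65 ± 0.18, adjusted p = 0.0470) and Oit3 (-0.60 ± 0.18, adjusted p = 0.0490) were lower at 6 h than at 3 h, where 4.18% of all tested genes were lower. Both lay close to the threshold, and each lost its call in 9 of the 15 alternatives. Both lost it with no filter and with the replicate block. Flt4 also lost it with each limma fit (adjusted p = 0.0683 and 0.0761), and Oit3 without both sham replicate 1 and 6 h replicate 3 (adjusted p = 0.0673). Oit3 lost its call when any 1 of the 6 libraries of these times was left out, with differences from -0.72 to -0.48 and adjusted p from 0.0608 to 0.166, and Flt4 lost it without any of them but 3 h replicate 3, with differences from -0.68 to -0.53 and adjusted p from 0.105 to 0.152. Between 6 h and 12 h, Oit3 (-0.72 ± 0.18, adjusted p = 0.0107), Stab1 (-0.67 ± 0.18, adjusted p = 0.0143) and Pecam1 (-0.60 ± 0.17, adjusted p = 0.0216) were lower at 12 h, where 12.6% of all tested genes were lower. None of these 3 held with scaling to library totals: Oit3 had -0.42 (adjusted p = 0.0963), Stab1 -0.37 (adjusted p = 0.161) and Pecam1 -0.29 (adjusted p = 0.198). With that scaling the median of all tested genes was 0.26, beside -0.04 in the main fit. Stab1 was also not called without 6 h replicate 2 (-0.60, adjusted p = 0.0601) or 12 h replicate 3 (-0.51, adjusted p = 0.0625), and Pecam1 not without 6 h replicate 2, 6 h replicate 3, 12 h replicate 1 or 12 h replicate 2 (adjusted p from 0.0605 to 0.0758).

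As a description over the 12 libraries, which share groups and scaling, log2(FPKM + 1) of the members correlated between r = -0.39 for Lyve1 with Kdr and r = 0.90 for Flt1 with Pecam1. Flt4 with Oit3 (r = 0.89) and Lyve1 with Pecam1 (r = 0.86) were the next highest pairs, and Kdr with Flt1 (r = -0.11) was the next lowest. By the same measure, the tested gene most like Lyve1 was Etfbkmt, a mitochondrial lysine methyltransferase gene (r = 0.98), followed by Pdgfra, a growth factor receptor gene of stellate cells and fibroblasts (r = 0.95). The genes most like Stab1 and Flt4 were Tmem204 (r = 0.97) and the vasoactive intestinal peptide receptor gene Vipr1 (r = 0.97). Kdr was most like the ubiquitin conjugating enzyme gene Ube2l6 (r = 0.96), and the third on its list was Dnase1l3 (r = 0.93), a secreted DNase of sinusoidal endothelium and macrophages. Clec4g was most like Fam167b (r = 0.94), and the third on its list was Ehd3 (r = 0.93), an endosomal transport gene of sinusoidal endothelium. Stab2 was most like Actn4 (r = 0.96), Oit3 like Cpn2 (r = 0.97), Pecam1 like Arnt (r = 0.95), Gata4 like Sh3gl1 (r = 0.95) and Flt1 like Cipc (r = 0.94).

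Other genes of sinusoidal endothelium also went both ways. Of 13 tested, 4 were higher at 3 h, and 1 was higher and 2 lower at 6 h. At 12 h, 1 was higher and 4 lower. Fewer than 3 sham libraries reached 1 FPKM for 2 of the 13. The medians were 0.18, -0.03 and -0.40. The 3 h median was 0.40 without both sham replicate 1 and 6 h replicate 3 and 0.015 with library totals, and the 12 h median was -0.26 and -0.40 in these fits. Ehd3 (0.83 ± 0.20, adjusted p = 0.0105) and the water channel gene Aqp1 (0.84 ± 0.17, adjusted p = 0.00355) rose at 3 h. Plxnc1, a semaphorin receptor gene, was higher at each time (0.93, 0.89 and 1.12, adjusted p = 0.00158, 0.00112 and 0.000372). Dnase1l3 fell at 6 h by 0.74 ± 0.17 and at 12 h by 1.04 ± 0.17 (adjusted p = 0.00390 and 0.000616), and the endothelial chemokine scavenger gene Gpr182 fell at 12 h by 0.86 ± 0.26 (adjusted p = 0.0258). Mrc1, the mannose receptor shared with macrophages, fell at 6 h by 0.55 ± 0.19 (adjusted p = 0.0391).

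Of 20 tested genes of endothelium in general, 6 were higher at 3 h, and 3 were higher and 2 lower at 6 h. At 12 h, 2 were higher and 4 lower. The medians were 0.54, -0.03 and -0.36. Fewer than 3 sham libraries reached 1 FPKM for 5 of the 20, so these counts are tied in part to the filter. At 12 h against 3 h, 13 of the 20 were lower. Nos3, the endothelial nitric oxide synthase, averaged 2.92 ± 0.59 FPKM at 3 h, 1.75 ± 0.22 FPKM at 6 h and 0.798 ± 0.117 FPKM at 12 h, against 0.370 ± 0.193 FPKM in sham livers (SD, n = 3 each). Its differences were 2.93, 2.20 and 1.09 (adjusted p = 3.4e-05, 0.000147 and 0.0221); no sham library reached 1 FPKM, so Nos3 passed the filter through the resected livers. The guidance receptor gene Robo4 and the tight junction gene Cldn5 fell at 12 h by 1.41 ± 0.24 (adjusted p = 0.000867) and by 1.2 ± 0.33 (adjusted p = 0.0155). Of 12 genes of large vessels and activated endothelium, 5 were tested; all 5 of these were higher at 3 h, 4 at 6 h and 3 at 12 h. Of the 5, 3 (Vcam1, Icam1 and Gja4) had fewer than 3 sham libraries at 1 FPKM and passed the filter with the help of the resected livers, where they were higher, so the count is tied to the filter. Gja4, the connexin 37 gene of arteries, averaged 8.35 ± 1.12 FPKM at 3 h, 4.07 ± 0.92 FPKM at 6 h and 1.94 ± 0.28 FPKM at 12 h, against 0.926 ± 0.412 FPKM in sham livers. The leukocyte adhesion genes Vcam1 (1.73 ± 0.27, adjusted p = 0.000622) and Icam1 (1.36 ± 0.23, adjusted p = 0.00101) also rose at 3 h.

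Of the ligands and co-receptors of the VEGF and angiopoietin receptors, 5 were tested. Vegfa, the ligand of Kdr and Flt1, fell at 3 h by 0.49 ± 0.14 (adjusted p = 0.0251) and at 6 h by 0.50 ± 0.14 (adjusted p = 0.0139), and had 0.01 ± 0.14 at 12 h (adjusted p = 0.973). Vegfb, a ligand of Flt1, fell at 6 h by 1.47 ± 0.32 (adjusted p = 0.00302) and at 12 h by 1.48 ± 0.32 (adjusted p = 0.00399). It averaged 2.40 ± 0.80 FPKM at 6 h and 2.37 ± 0.67 FPKM at 12 h, against 6.56 ± 2.10 FPKM in sham livers. Sema3f, a semaphorin that binds neuropilins, rose at each time (1.69, 1.40 and 0.86, adjusted p = 0.000556, 0.00101 and 0.0255). It reached 1 FPKM in 1 sham library and passed the filter through the resected livers, so its presence among the tested genes is tied to its difference. Nrp1, the VEGF-A co-receptor, rose at 6 h (0.74 ± 0.18, adjusted p = 0.00677).

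For factors that liver endothelium is known to secrete or present, 9 genes were tested. Of these, 3 were higher and 1 lower at 3 h, 1 higher and 2 lower at 6 h, and 5 higher at 12 h. Fewer than 3 sham libraries reached 1 FPKM for 4 of the 9, so these counts are tied in part to the filter. Wnt2, an endothelial Wnt ligand for pericentral hepatocytes, rose at 3 h (1.28 ± 0.29, adjusted p = 0.00654) and 12 h (1.08 ± 0.29, adjusted p = 0.0135); it reached 1 FPKM in no sham library. Hgf, the hepatocyte growth factor, which stellate cells also make, rose at 3 h (0.93 ± 0.29, adjusted p = 0.0356) and 12 h (1.40 ± 0.29, adjusted p = 0.0031). Hgf reached 1 FPKM in 1 sham library and passed the filter through the resected livers. The chemokine gene Cxcl12 was lower at 3 h and 6 h (-0.69 and -0.82, adjusted p = 0.00278 and 0.000409) and higher at 12 h (0.60, adjusted p = 0.00513). Fewer than 3 sham libraries reached 1 FPKM for 3 of the 10 tested transcription factors of endothelium. Of the 10, 5 were higher and 1 lower at 3 h, and 3 were higher and 3 lower at 6 h. At 12 h none was called by edgeR, DESeq2 or limma, and by edgeR 1 was higher and 1 lower at an unadjusted p under 0.05. With scaling to library totals, 1 was called lower at 12 h. Without both sham replicate 1 and 6 h replicate 3, 1 was called higher and 2 lower. The flow-responsive factors Klf2 (1.30 ± 0.32, adjusted p = 0.0115) and Klf4 (2.46 ± 0.40, adjusted p = 0.000744) rose at 3 h, although Klf4, at 0.135 to 0.375 FPKM in sham livers, passed the filter only through resected livers. Nr2f2, the venous factor COUP-TFII, fell at 3 h by 1.25 ± 0.18 (adjusted p = 0.000257).

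**Figure D4:**
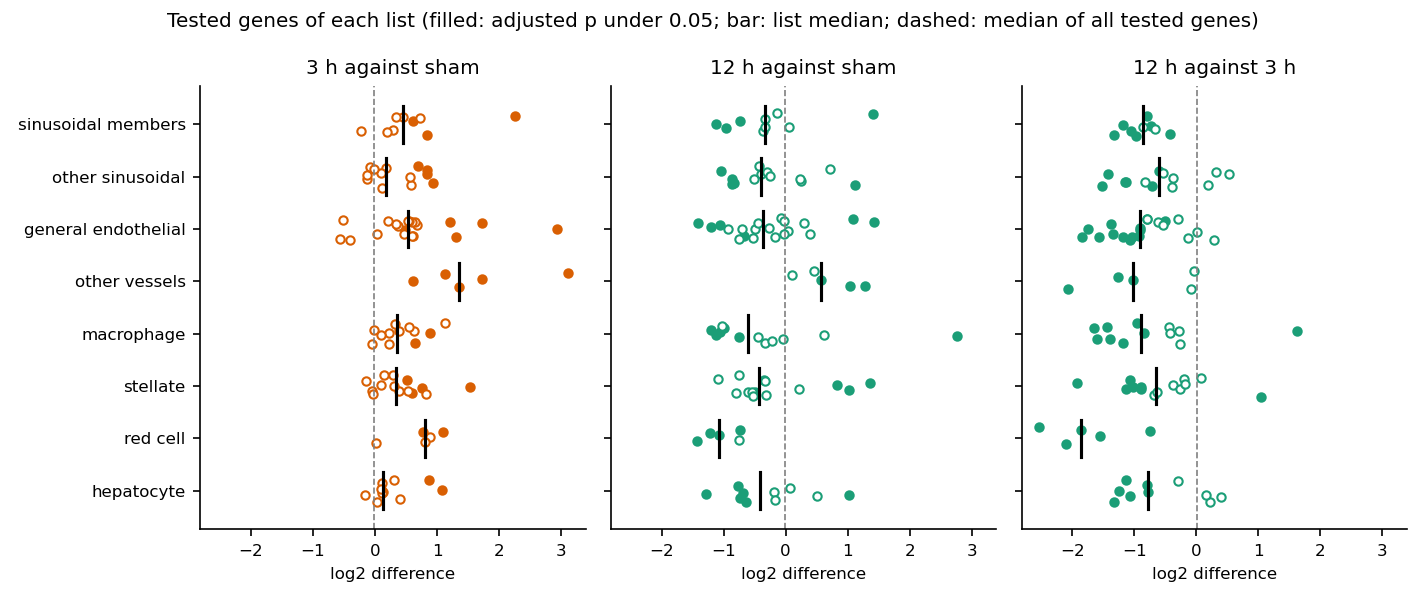
Log2 difference of each tested gene of 8 lists at 3 h against sham (left), 12 h against sham (middle) and 12 h against 3 h (right); filled points passed at an adjusted p under 0.05, short bars are list medians, and the dashed line is the median of all tested genes. The median of the sinusoidal members is 0.45, -0.33 and -0.85. The medians of the macrophage, stellate, red cell and hepatocyte lists lie on the same side of 0. For hepatocytes they are 0.13, -0.42 and -0.79. The median of the other vessels lies above 0 at 12 h against sham (0.58).

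Some markers of other cell types moved with the members and some did not. Summed over 12 macrophage genes, the level was 158.6 to 183.3 FPKM at 3 h, 106.3 to 132.8 FPKM at 6 h and 79.2 to 98.5 FPKM at 12 h, against 106.2 to 157.4 FPKM in sham livers, and 5 of the 12 were lower and 1 higher at 12 h than in sham livers. Clec4f, the most specific of them for Kupffer cells, averaged 35.2 ± 5.0 FPKM at 3 h and 12.7 ± 1.6 FPKM at 12 h, against 27.4 ± 4.5 FPKM in sham livers. Summed over 14 stellate genes the level was 45.9 to 70.8 FPKM at 3 h, against 39.9 to 48.8 FPKM in sham livers. It was 43.2 to 49.4 FPKM at 6 h and 39.3 to 45.7 FPKM at 12 h. Of the 14, 4 were higher at 3 h, and 3 were higher and 1 lower at 12 h. None was lower at 3 h by edgeR, also at an unadjusted p under 0.05, nor by DESeq2 or limma. However, 7 of the 14 had fewer than 3 sham libraries at 1 FPKM and passed the filter with the help of the resected livers. These counts are therefore tied in part to the filter. Red cell genes summed to 149.5 to 175.7 FPKM at 3 h, 87.9 to 115.8 FPKM at 6 h and 47.9 to 69.2 FPKM at 12 h, against 93.0 to 119.1 FPKM in sham livers, and 4 of 5 tested were lower at 12 h. Of 7 tested monocyte and neutrophil genes, 6 were higher at 3 h, 5 at 6 h, and 3 were higher and 1 lower at 12 h, with medians of 2.72, 2.70 and 0.66; 4 of the 7 reached 1 FPKM in no sham library, so these counts and medians are tied to the filter. All 12 of that list summed to 53.0 to 66.0 FPKM at 3 h, 39.6 to 51.2 FPKM at 6 h and 24.0 to 30.2 FPKM at 12 h, against 28.1 to 33.9 FPKM in sham livers. Of 3 tested bile duct genes, 2 were higher at 3 h, 3 at 6 h and 1 at 12 h. Of these 3, 1 reached 1 FPKM in no sham library and passed the filter through the resected livers. The 6 of that list summed to 28.4 to 38.9 FPKM at 3 h, against 18.5 to 21.2 FPKM in sham livers. They summed to 30.4 to 38.3 FPKM at 6 h and 22.6 to 30.4 FPKM at 12 h. Of 10 hepatocyte genes, 2 were higher at 3 h and 2 at 6 h than in sham livers. At 12 h, 5 were lower and 1 higher than in sham livers. Against 3 h, 6 of the 10 were lower at 12 h, with a median of -0.79. The lymphatic list summed to 26.6 to 38.1 FPKM at 3 h, 25.5 to 33.7 FPKM at 6 h and 21.3 to 28.8 FPKM at 12 h, against 13.5 to 26.5 FPKM in sham livers, mostly from Prox1, a transcription factor that hepatocytes also express. Of its 2 tested genes, Reln, which stellate cells also express, was higher at 3 h (0.52 ± 0.15, adjusted p = 0.0227) and fell at 12 h by 0.50 ± 0.15 (adjusted p = 0.0223), and Prox1 was not called. The lymphatic markers Pdpn and Mmrn1 averaged under 1 FPKM in every group. In every library, 1 of the 2 rows of Ccl21a was at 0, as were Mpo of neutrophils and Gp1bb of platelets. Of 6 platelet genes, 1 was tested, Pf4. It was higher at 3 h (2.54) and 6 h (2.36) and not called at 12 h (1.14). Pf4 reached 1 FPKM in no sham library, so it passed the filter through the resected livers. The 6 platelet genes summed to 2.50 to 3.86 FPKM at 3 h, against 1.26 to 2.13 FPKM in sham livers. They summed to 1.93 to 3.30 FPKM at 6 h and 0.805 to 2.36 FPKM at 12 h. The part of these cell types in the members' differences was not tested.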

How the data were processed

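Poly(A) RNA from 12 whole liver libraries was measured, 3 per group. TRIzol was used for extraction and the NEBNext Ultra kit for the libraries, per the labels' protocols. The submitters' processing notes name GRCm38 (mm10) and the tools fastp, CASAVA 1.8, featureCounts 1.5.0-p3, HISAT2 2.0.5 and DESeq2 1.20.0, without their roles. The deposited table gives whole-number counts and FPKM per library, per the file headers. From the values, each deposited FPKM is the count over the gene's length and over a library size that is not the library's total, so FPKM carry a scaling between libraries. Whether counting used strand is not given in the sources used here: Stab1 overlaps Nt5dc2 (772 counts over all libraries, against 7953 for Stab1), Clec4g overlaps Gm16553 (54 against 4661), and 5 antisense genes or pseudogenes with 50 counts or fewer each overlap Stab2 (7961 counts).

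From the counts, edgeR 4.0.16 (R 4.3.3) was run with TMM scaling, 1 model with the 4 groups over all 12 libraries, two-sided quasi-likelihood tests, and Benjamini-Hochberg adjustment over 11451 genes. These had at least 1 FPKM in at least 3 libraries and held 99.1% or more of each library's counts. The biological coefficient of variation was 20.6%, and the test was tried on simulated data first. For 3 h against sham, it called 6 of 50 genes changed 1.5-fold and 29 of 50 changed 2-fold in the right direction. It called 45 of 50 changed 4-fold, 47 of 50 changed 8-fold and 11 of 11251 unchanged genes. A member that was not called may therefore still differ. Far fewer genes were changed in the simulation than the 2468 called at 3 h in the data, so the adjustment was stricter there. Its rates may thus be lower than those in the data. Alternatives were median-ratio scaling, library totals, DESeq2 1.42.0, limma 3.58.1 on log2(FPKM + 1) and log2(FPKM + 0.1), no filter (27369 genes; there the prior degrees of freedom were infinite, against 5.31 in the main model, so spread was not estimated per gene and p-values are not comparable), only the 2 groups compared, the replicate number as a block, leaving out both sham replicate 1 and 6 h replicate 3, and each library left out in turn. For Flt1, genes with at least 10 counts in at least 3 libraries (14649) were fitted, a choice added after the data were seen. The members, gene lists and tests were chosen with earlier results of these data known. All members are named with every library; of each other list, up to 4 called genes per comparison with sham, those with the largest differences; and per member up to 3 genes of highest correlation. Cd5l and Vsig4 were named outside this rule, to set beside Clec4f. Sequences are from RefSeq (GRCm38.p6), and gene positions, as deposited, are those of GENCODE M21 for the 10 members.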

Additional observations from a re-analysis of the deposited data

Results flagged for a closer look

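Differences between times after resection, tested directly in the edgeR fit, passed for 12 pairs of member and times, and every one was lower at the later time. Each value is the log2 difference, later minus earlier. At 6 h against 3 h, Flt4 had -0.65 and Oit3 -0.60. At 12 h against 6 h, Stab1 had -0.67, Pecam1 -0.60 and Oit3 -0.72. At 12 h against 3 h, Stab1 had -0.98, Stab2 -0.43, Clec4g -1.06, Kdr -0.74, Flt4 -1.18, Pecam1 -0.79 and Oit3 -1.32. The direction of these 12 differences was the same under each alternative run. Of all tested genes, 4.18% were lower at 6 h against 3 h (479 of the 988 called). At 12 h against 6 h, 12.6% were lower (1441 of the 2828 called). At 12 h against 3 h, 18.2% were lower and 17.8% higher. The comparisons share libraries, so the 12 differences are not separate results.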

How the results depend on the processing

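Of 816 recomputed member differences, 711 kept their direction and side of the threshold, 49 lost and 30 gained a call, and 26 changed sign, none of them called. The cause of these changes was not tested. Sign changes at 6 h against sham were with library totals for Stab1 (-0.011), Stab2 (-0.10), Clec4g (-0.15) and Gata4 (-0.059), and for Clec4g without sham replicate 1 (-0.034) or 6 h replicate 2 (-0.0061), among -0.034 to 0.44 with each library left out. Pecam1 at 12 h against sham turned without sham replicate 2 (-0.077), among -0.077 to 0.15. At 6 h against 3 h, Lyve1 (0.01) turned with median-ratio scaling (-0.011), library totals (-0.14), DESeq2 (-0.010), limma (-0.031 and -0.046), no filter (-0.0099), only the 2 groups (-0.0011), the replicate block (-0.024), without both doubted libraries (-0.41), and without 3 h replicate 1 (-0.12), 3 h replicate 3 (-0.14) or 6 h replicate 3 (-0.41), among -0.41 to 0.34. There, Stab2 turned without both (0.029), 3 h replicate 2 (0.043) or 6 h replicate 3 (0.029), among -0.19 to 0.043, and Gata4 without 3 h replicate 1 (0.025) or 3 h replicate 2 (0.0062), among -0.25 to 0.025. Kdr at 12 h against 6 h turned with library totals (0.20) and without 12 h replicate 3 (0.026), among -0.35 to 0.026.

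Members called at 3 h against sham were 5 with no filter (3 with it). At 6 h against 3 h they were 1 with each limma fit, 0 with the replicate block and 1 without both doubted libraries, against 2. At 12 h against 6 h they were 0 with library totals, 5 with no filter and 6 without both, against 3. Of all tested genes, 2468 were called at 3 h against sham and 1532 with only the 2 groups; 3298 at 12 h and 5494 without both; 988 at 6 h against 3 h, but 1525 with DESeq2, 1492 with no filter, 1485 with only the 2 groups and 1366 without both; and 2828 at 12 h against 6 h and 4109 without both. With each library left out, members called numbered 2 to 4 at 3 h, 3 in each case at 6 h and 3 to 5 at 12 h against sham, 0 to 1 at 6 h against 3 h, 1 to 4 at 12 h against 6 h, 4 to 8 at 12 h against 3 h, and 6 to 9 among the 4 groups. All genes called then numbered 1764 to 2672, 3305 to 4900 and 2112 (without 12 h replicate 3) to 5263 (without sham replicate 1) against sham, 400 to 714 at 6 h against 3 h, 1853 to 2274 at 12 h against 6 h and 2820 to 3332 at 12 h against 3 h. Same-numbered libraries correlated from -0.268 to 0.168 in their deviations from group means, over 0.1 in 4 of 18 pairs, and 2 of 12 libraries were most like their own number, so the numbers were not used as pairs; with the replicate block 6 members were called at 12 h against 3 h, and Flt4, Oit3 (6 h against 3 h) and Stab2 (12 h against 3 h) lost their calls.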
